A study of Mus musculus with 6 samples.

Results

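The erythroid differentiation genes examined here were Alas2, Epb42, Slc4a1, Rhag, Klf1, Gata1, Ermap, Tspo2 and Car2, taken as every probe set whose listed gene symbol was exactly one of these names. All 9 genes had a probe set, and together they had 12 of the 20379 single-gene probe sets of the table. The cells were spleen cells selected for CD11c with magnetic beads, and their RNA was hybridized to Affymetrix MOE430A arrays. There were 3 arrays from mice hypomorphic for Atg16L1 and 3 from wild-type mice, all untreated, C57BL/6J in background and 8 weeks old. The hypomorphic allele lowers the function of an autophagy protein, and the labels do not say how it was made or whether each array stands for its own animal, so p-values measure only the spread between these arrays.

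Red blood cells develop from erythroblasts, which in adult mice form in the bone marrow and also in the red pulp of the spleen. The transcription factors GATA1 and KLF1 switch on a shared set of genes in these cells, among them those for haem synthesis, globin chains and the membrane and its skeleton. Maturing cells lose their nucleus and still hold RNA as reticulocytes for a short time, and splenic macrophages take up aged red cells. Dendritic cells, the cells for which CD11c is commonly used, are not known for this gene programme, and CD11c selection does not choose erythroid cells.

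The deposited values were read as log2 expression, so that a difference of 1 is a 2-fold difference. Atg16l1 was lower on all hypomorph arrays, at 6.13, 5.84 and 6.11, against 7.05, 7.11 and 7.04 in wild type (log2 change -1.04, SE 0.099, adjusted p = 0.00139, limma). The conventional dendritic cell list had a mean level over 11 genes of 10.25 to 10.36 in the hypomorph and 10.35 to 10.52 in wild type. Of these 11 genes 1 rose and 3 fell by limma. Ciita, the master regulator gene of MHC class II, was 1.90-fold lower (adjusted p = 0.00818) and Zbtb46, a transcription factor gene of conventional dendritic cells, 1.54-fold lower (adjusted p = 0.0101). Named after their values were seen, Itgax, which encodes CD11c itself, fell by 0.37 on the log2 scale, to 9.94 ± 0.07 in the hypomorph against 10.32 ± 0.13 in wild type (SD, n = 3 each, adjusted p = 0.0351), and the chemokine receptor gene Xcr1 rose 1.37-fold (adjusted p = 0.0384). The brightest, the MHC class II gene H2-Aa, did not pass (log2 change 0.16, adjusted p = 0.166). Poly-A spike-ins, bacterial transcripts added before labelling, were lower in the hypomorph, at 7.69 ± 0.18 against 9.48 ± 0.50 (SD, n = 3 each). They read 7.90, 7.58 and 7.59 on the hypomorph arrays and 9.96, 9.53 and 8.95 on the wild-type arrays, without overlap. A fit with them as a covariate can therefore hardly separate them from genotype. Their part in any difference below was not tested otherwise.

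No erythroid probe set passed the threshold in the comparison of genotypes, and the leading feature of these genes was a wide and shared difference between arrays of the same genotype. With limma, 0 of the 12 probe sets rose and 0 fell at an adjusted p under 0.05, and 0 had an unadjusted p under 0.05. Of all probe sets tested 17.7% passed, 9.95% higher and 7.73% lower in the hypomorph, and 6745 of 20379 had an unadjusted p under 0.05. The hypomorph mean was the higher one for 10 of the 12, with a median log2 change of 0.92 beside -0.04 over all probe sets, and adjusted p-values ran from 0.187 to 0.97. The arrays of the genotypes overlapped for all 12, whereas they did not overlap for 39.8% of all probe sets. Less erythroid RNA in a sample can mean fewer such cells or less RNA in each, which arrays of a cell mixture cannot tell apart.

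Slc4a1 encodes band 3, the chloride and bicarbonate exchanger of the red cell membrane. Its first probe set read 8.69, 9.22 and 6.33 on hypomorph replicates 1, 2 and 3, against 8.16, 5.39 and 6.71 on wild-type replicates 1, 2 and 3. Hypomorph replicates 1 and 2 were the highest, but hypomorph replicate 3 was below 2 of the 3 wild-type arrays. The highest and lowest arrays differed 7.40-fold within the hypomorph and 6.81-fold within wild type, more than the 2.51-fold difference between the means (log2 change 1.33, 95% interval -0.77 to 3.43, adjusted p = 0.349). The second probe set repeated this order of arrays, at 8.68, 9.17 and 6.13 in the hypomorph and 8.19, 4.86 and 6.52 in wild type (log2 change 1.47, 95% interval -0.90 to 3.83, adjusted p = 0.359). The third stayed between 3.08 and 3.17 on all 6 arrays and did not follow the other two. Whether readings this low lie above background is not known.

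Epb42 encodes protein 4.2, which ties band 3 to the membrane skeleton. It read 4.53, 4.87 and 3.15 on the hypomorph arrays, against 3.80, 2.87 and 2.95 on the wild-type arrays, so that hypomorph replicate 3 lay between wild-type replicate 1 and the other two. The difference of 0.98 had a 95% interval of -0.10 to 2.05 and the smallest adjusted p of the 12 (0.187). Its other probe set read 3.69, 3.69 and 3.51 in the hypomorph and 3.94, 3.46 and 3.59 in wild type, with a difference of -0.03. Neither probe set separated the genotypes, and only the first varied widely.

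Rhag encodes the Rh-associated glycoprotein, which the Rh antigens need to reach the membrane. It read 5.08, 5.48 and 3.27 in the hypomorph, against 4.24, 3.07 and 2.99 in wild type. Wild-type replicate 1 was thus closer to the 2 high hypomorph arrays than any other array was (difference 1.17, 95% interval -0.22 to 2.57, adjusted p = 0.217). Ermap, a gene for an erythroblast membrane protein that carries the Scianna blood group in humans, read 7.33, 7.12 and 5.44 in the hypomorph, against 6.56, 4.89 and 5.60 in wild type. Here too hypomorph replicate 3 was below wild-type replicates 1 and 3 (difference 0.95, 95% interval -0.41 to 2.31, adjusted p = 0.302).

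Alas2 encodes the erythroid form of 5-aminolevulinate synthase, the first enzyme of haem synthesis. It read 6.74, 7.32 and 5.19 in the hypomorph, against 7.01, 5.84 and 6.27 in wild type. The lowest of all arrays was hypomorph replicate 3 and the highest hypomorph replicate 2, and the means, 6.42 ± 1.10 and 6.37 ± 0.59 (SD, n = 3 each), differed by only 0.04 (95% interval -1.23 to 1.32, adjusted p = 0.97). That interval leaves room for a change of more than 2-fold either way. Tspo2, a red cell relative of the mitochondrial translocator protein gene Tspo, varied less, at 4.59, 4.82 and 4.29 in the hypomorph and 4.41, 4.22 and 4.22 in wild type (difference 0.28, 95% interval -0.05 to 0.61, adjusted p = 0.218).

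Car2 encodes carbonic anhydrase 2, which interconverts CO2 and bicarbonate in red cells and is also made in cells such as osteoclasts and kidney epithelium. It read 9.72, 9.57 and 8.02 in the hypomorph, against 9.20, 7.22 and 8.03 in wild type, with hypomorph replicate 3 level with wild-type replicate 3. The difference was 0.96 (95% interval -0.44 to 2.35, adjusted p = 0.31).

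Of the transcription factor genes, Klf1 varied widely and Gata1 less. Klf1 encodes the zinc finger factor that activates adult beta-globin. It read 6.73, 5.98 and 4.75 in the hypomorph, against 5.50, 4.43 and 4.83 in wild type (difference 0.90, 95% interval -0.26 to 2.06, adjusted p = 0.253). It is one of the genes that were highest on hypomorph replicate 1 rather than on replicate 2. Gata1, also used by megakaryocytes, eosinophils and mast cells, read 3.77, 3.64 and 3.66 in the hypomorph and 3.87, 3.36 and 3.46 in wild type (difference 0.13, 95% interval -0.19 to 0.46, adjusted p = 0.553). Its range within the hypomorph was 0.13, against 1.98 for Klf1, and within wild type 0.51, against 1.07 for Klf1. Wild-type replicate 1 was its highest wild-type array and replicate 2 its lowest, as for Klf1. The table has no detection calls, so it is not known whether readings this low lie above background. The same holds for the lowest arrays of Epb42 (2.87 to 3.15) and Rhag (2.99 to 3.27). It holds too for all arrays of the third Slc4a1 probe set (3.08 to 3.17) and the second Epb42 probe set (3.46 to 3.94).

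**Figure D1:**
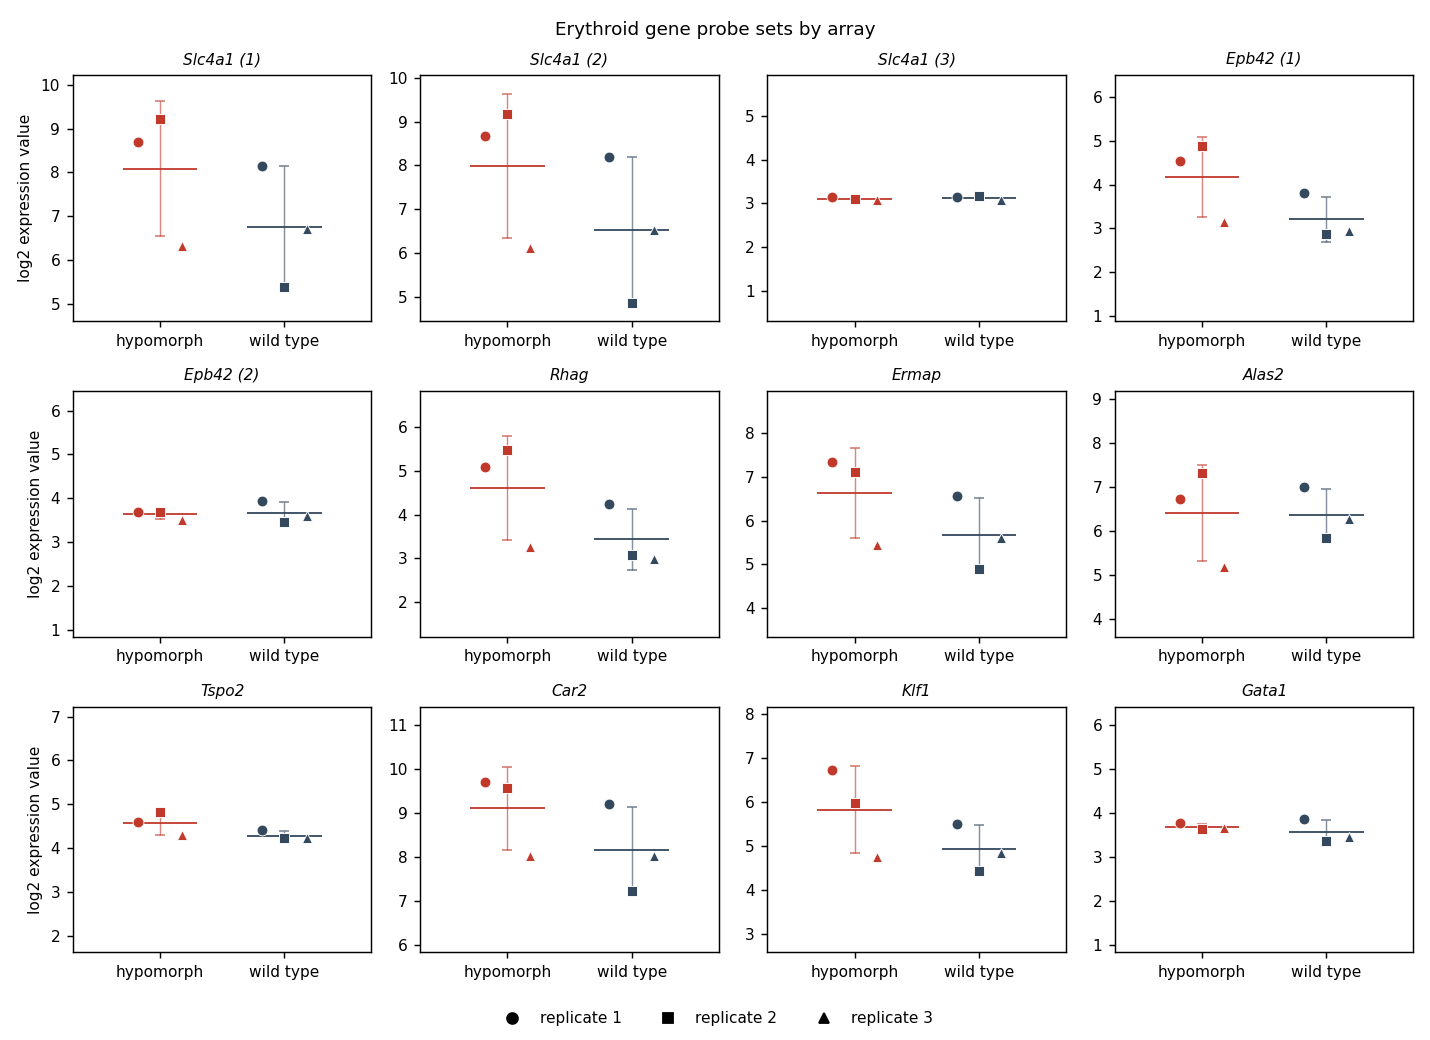
Log2 expression value (vertical axis, spanning the same number of units in each panel) of the 12 erythroid probe sets on the 3 hypomorph and 3 wild-type arrays, with marker shapes for replicates, horizontal lines for means and bars for 1 SD. Numbers after Slc4a1 and Epb42 tell their probe sets apart. Hypomorph replicate 3 lies below the other hypomorph arrays in 11 panels, such as 6.33 against 8.69 and 9.22 for the first Slc4a1 probe set.

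The order of the arrays was shared among the members. The range within the hypomorph exceeded 1 on the log2 scale for 8 of the 12 probe sets, covering 7 genes (all but Tspo2 and Gata1), and lay between 1.69 and 3.04 there. Only 96 of all 20379 probe sets, 0.471%, had a range above 1 within the hypomorph. The members were chosen with earlier results of these data known, so this contrast is a description and not a test. In each of the 8, hypomorph replicate 3 was the lowest hypomorph array, wild-type replicate 1 was the highest wild-type array, and hypomorph replicate 3 was below wild-type replicate 1. Hypomorph replicates 1 and 2 were both above every wild-type array in 7 of the 8, the exception being Alas2. The highest array was hypomorph replicate 2 in 5 and hypomorph replicate 1 in 3. The titles of wild-type replicates 1 and 3 differ from the rest, the first in its leading number and the other in its array name, and the labels do not say what these stand for.

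Hypomorph replicate 3 and wild-type replicate 2 were the lowest arrays of their genotype for 9 of the 12 probe sets, a pattern chosen after the values were seen. In 1 of these, Tspo2, wild-type replicates 2 and 3 were tied, which leaves 8 without ties. The pattern was met by 10.4% of all probe sets, with such ties or without, and by 22.9% of the 96 that varied by more than 1 in the hypomorph. Those 96 include the 8 widely varying erythroid probe sets, 7 of which had the pattern. The 2 following Slc4a1 probe sets measure the same gene and are not separate evidence. The SD within the hypomorph had a median of 0.969 over the 12 erythroid probe sets, against 0.0913 over all probe sets, and within wild type 0.567 against 0.144.

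**Figure D2:**
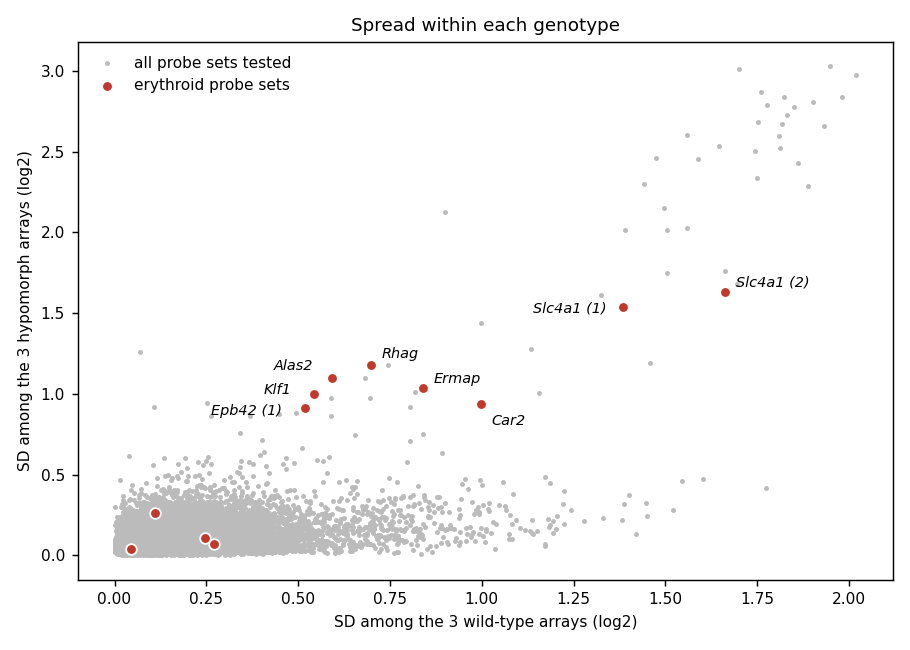
SD among the 3 wild-type arrays (horizontal axis, log2) and among the 3 hypomorph arrays (vertical axis, log2) of every probe set tested, in grey, and of the 12 erythroid probe sets, in red. The 8 labelled erythroid points stand apart from most of the grey cloud, whose medians are 0.144 in wild type and 0.0913 in the hypomorph.

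**Figure D3:**
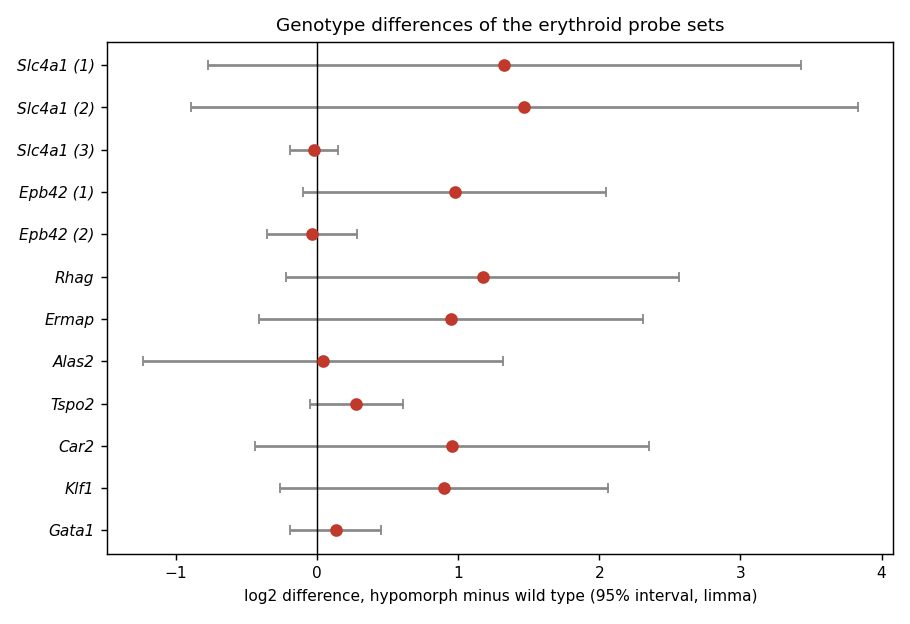
Difference between hypomorph and wild-type means (horizontal axis, log2, hypomorph minus wild type) with its 95% interval from limma for the 12 erythroid probe sets. All 12 intervals include 0, and those of the probe sets with wide spread reach 1.07 to 2.36 either side of the estimate.

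The result depended on hypomorph replicate 3. Without it, 2 of the 12 probe sets passed the threshold with limma, the first Epb42 probe set (difference 1.49, adjusted p = 0.0413) and Rhag (1.84, adjusted p = 0.047). In that fit 932 of all 20379 probe sets rose and 347 fell. An unadjusted p under 0.05 was met by 8 of the 12 and by 5269 of all. Hypomorph replicate 3 was the lowest hypomorph array for 11 of the 12, so leaving it out had to raise their hypomorph means. The counts of this fit are therefore no test of a rise. Epb42 and Rhag both read near 3 on wild-type replicates 2 and 3, where background is unknown, so the sizes of these differences are uncertain. Without any other single array 0 of the 12 passed. Without wild-type replicate 1, 4 of the 12 had an unadjusted p under 0.05, beside 6499 of all 20379, a similar share. Without each of the rest 0 of the 12 did. For the first Slc4a1 probe set the difference ran from 0.65 to 2.20 as single arrays were left out, and for Alas2 from -0.41 to 0.65. The spike-in signal as a covariate gave larger differences, such as 3.85 for that Slc4a1 probe set, with 0 of 12 called (0 at an unadjusted p under 0.05). Its SE rose from 0.89 to 2.82, as this covariate nearly follows genotype, so the fit cannot decide whether these genes differ.

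**Figure D4:**
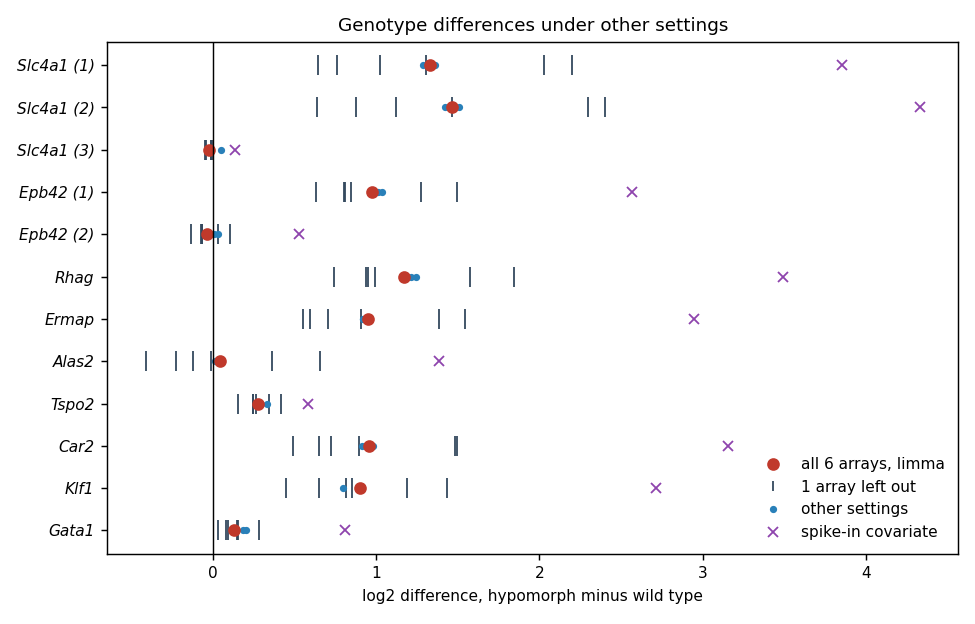
Difference between hypomorph and wild-type means (horizontal axis, log2) of each erythroid probe set with all 6 arrays (red points), with 1 array left out (bars), with other settings (blue points) and with the spike-in signal as a covariate (crosses). Leaving out single arrays moved the first Slc4a1 probe set between 0.65 and 2.20 and Alas2 across 0, from -0.41 to 0.65.

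Because these genes varied together, the letters before their start sites are shown for 3 of them. GATA factors are known to bind the letters AGATAA and TGATAA, and 5 of the 7 members with a promoter in the RefSeq table (GRCm38.p6) had 1 of them on either strand within 250 bases before the start. Of 32851 such windows of all genes, 16.6% did. The matches lay in Alas2, Epb42, Klf1, Rhag and Ermap, and none was found in these windows of Gata1 and Tspo2. The windows below run 5′ to 3′ up to the base before the start, with the match in capitals, all on the opposite strand.
Alas2, chrX:150547167-150547416, plus strand, match starting 86 bases before the start: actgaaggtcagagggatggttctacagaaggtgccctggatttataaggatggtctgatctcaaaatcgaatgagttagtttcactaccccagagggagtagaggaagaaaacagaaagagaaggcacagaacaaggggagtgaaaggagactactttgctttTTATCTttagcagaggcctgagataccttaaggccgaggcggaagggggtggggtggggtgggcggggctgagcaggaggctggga
Epb42, chr2:121036878-121037127, minus strand, match starting 226 bases before the start: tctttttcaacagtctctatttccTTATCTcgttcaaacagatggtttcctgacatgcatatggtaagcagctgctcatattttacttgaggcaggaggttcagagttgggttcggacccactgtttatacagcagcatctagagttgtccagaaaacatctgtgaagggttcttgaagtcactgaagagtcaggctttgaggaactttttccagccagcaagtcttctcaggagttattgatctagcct
Klf1, chr8:84901732-84901981, plus strand, match starting 80 bases before the start: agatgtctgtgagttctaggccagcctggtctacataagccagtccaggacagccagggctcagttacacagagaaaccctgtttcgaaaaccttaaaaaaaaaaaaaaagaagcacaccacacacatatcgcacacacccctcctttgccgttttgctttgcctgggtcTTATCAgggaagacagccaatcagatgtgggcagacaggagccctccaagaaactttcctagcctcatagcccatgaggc
The capitals read TTATCT in Alas2 and Epb42, which is AGATAA on the other strand, and TTATCA in Klf1, which is TGATAA there. A match is a description of these letters and not a bound site.

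Other erythroid genes, some of which are also made by other cell types, went both ways in the comparison of genotypes. Of 77 measured genes in 6 lists (haem synthesis, iron and haem transport, haemoglobins, red cell membrane, erythroid regulators, and metabolism and maturation), each taken by its brightest probe set, 7 rose and 7 fell, 9.09% each way beside 9.65% and 8.32% of all genes. Their median log2 change was 0.08 beside -0.05 over all genes. As a share called they did not stand out from the background, so these counts are not a result about erythroid cells. Without hypomorph replicate 1, 2 or 3 the risen genes numbered 3, 3 and 5 and the fallen genes 4, 3 and 4. With the spike-in covariate 0 of the other erythroid genes and 0 macrophage genes passed (1932 of all probe sets at an unadjusted p under 0.05, limma). That covariate nearly follows genotype, so these empty counts do not undo the calls.

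None of the 6 haem synthesis genes after Alas2 in the pathway passed the threshold, with 0 risen and 0 fallen by limma and 1 of 6 at an unadjusted p under 0.05. Fech, which inserts iron into the haem ring, read 8.19, 8.16 and 7.63 in the hypomorph and 7.93, 7.60 and 7.69 in wild type (log2 change 0.26, adjusted p = 0.342), again with hypomorph replicate 3 lowest in its genotype. Of 9 iron and haem transport genes, 0 rose and 1 fell. This was Ireb2, which encodes an iron regulatory protein that binds messenger RNAs, at 7.67 ± 0.01 in the hypomorph and 8.18 ± 0.03 in wild type (SD, n = 3 each, adjusted p = 0.00487). The transferrin receptor gene Tfrc read 9.34, 9.23 and 8.91 in the hypomorph and 9.37, 8.83 and 9.03 in wild type, a difference of 0.08 (adjusted p = 0.778).

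Of 20 red cell membrane genes 3 rose and 0 fell. The nucleoside transporter gene Slc29a1 rose 1.90-fold, to 6.93 ± 0.06 in the hypomorph against 6.00 ± 0.11 in wild type (adjusted p = 0.00133). Bsg, which encodes basigin, rose 1.27-fold (adjusted p = 0.0221), and Cd47, the signal that restrains uptake by macrophages, 1.27-fold (adjusted p = 0.0248). All 3 are made by many cell types besides erythroid cells. Of 21 regulators 1 rose and 4 fell. The erythropoietin receptor gene Epor rose 1.60-fold (6.56 ± 0.10 in the hypomorph, 5.88 ± 0.11 in wild type, adjusted p = 0.00489), and Lyl1, a basic helix-loop-helix factor gene, was 1.69-fold lower (7.43 ± 0.11 in the hypomorph, 8.19 ± 0.11 in wild type, adjusted p = 0.00363). The other fallen genes, named after their values were seen, were those for the transcription factors Gata2 and Klf3 and for the cofactor Ldb1, with log2 changes of -0.69, -0.50 and -0.43. The kinase gene Jak2 did not pass (log2 change -0.28, adjusted p = 0.0822).

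Of 15 metabolism and maturation genes 3 rose and 1 fell. The ubiquitin-like conjugation enzyme gene Ube2l6 rose 1.60-fold (adjusted p = 0.00578) and the catalase gene Cat 1.66-fold, to 10.29 ± 0.07 in the hypomorph against 9.56 ± 0.29 in wild type (adjusted p = 0.0172). Fam210b also rose (1.33-fold) and Mkrn1, a ubiquitin ligase gene, fell by 0.58 on the log2 scale, both named after their values were seen. Ube2l6 and Cat are also expressed outside the erythroid lineage. The arrays of Slc29a1, Epor and Ube2l6 lay close together within each genotype, with SDs of 0.06 to 0.12. These genes were named for a small p, a choice that favours a small spread.

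Some of the other erythroid genes also varied widely between hypomorph arrays. The lists, like the members, were chosen with earlier results of these data known, so the shares here are descriptions and not tests. Within the hypomorph 11 of the 77 ranged over more than 1 on the log2 scale, 14.3% beside 0.557% of all genes, and in all 11 hypomorph replicate 3 was the lowest hypomorph array. Wild-type replicate 1 was the highest wild-type array in 10 of them. Wild-type replicate 2 was the lowest wild-type array in 5 of the 11, against 7 of the 8 widely varying member probe sets. By genotype, 0 of the 11 passed the threshold by limma (0 at an unadjusted p under 0.05). Choosing genes for a wide range within the hypomorph raises the SE of this comparison, so the count says little about genotype. The 11 included, named after their values were seen, the Kell blood group gene Kel, at 5.74, 5.36 and 3.84 in the hypomorph against 5.29, 2.99 and 4.36 in wild type. Trim10, an erythroid gene of the TRIM family, read 6.08, 6.22 and 4.40 in the hypomorph against 6.01, 4.38 and 5.06 in wild type. Rhd, the gene for the Rh blood group antigen, read 6.48, 6.40 and 5.35 in the hypomorph against 6.20, 4.46 and 5.67 in wild type. These 3 are among the 5 genes with wild-type replicate 2 lowest. In the other 6 wild-type replicate 3 was lowest, among them Aqp1, the gene for the water channel aquaporin 1, at 6.72, 6.55 and 5.14 in the hypomorph against 5.93, 6.39 and 5.66 in wild type. Tal1, a transcription factor gene of early blood cells, read 6.20, 6.07 and 4.99 in the hypomorph against 5.98, 5.39 and 4.97 in wild type.

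Among all other genes, the 5 whose profile over the 6 arrays was most like the mean of the members were Hemgn, Tmcc2, Ctse, Cdr2 and Dusp9, out of probe sets with an SD of at least 0.3. Pearson's r over the 6 arrays was 0.984 for Hemgn, 0.982 for Tmcc2, 0.98 for Ctse, 0.977 for Cdr2 and 0.974 for Dusp9, with Spearman's rho from 0.886 for Hemgn to 1.0 for Tmcc2, Cdr2 and Dusp9. These are descriptions of genes ranked by that measure. Hemgn, which encodes the nuclear protein hemogen of blood-forming cells, read 8.05, 7.79 and 5.02 in the hypomorph, against 6.81, 3.42 and 4.93 in wild type, a difference of 1.90 that did not pass (95% interval -0.52 to 4.32, adjusted p = 0.248). Ctse, the cathepsin E gene, read 8.85, 8.78 and 7.13 in the hypomorph, against 7.76, 6.58 and 7.15 in wild type (adjusted p = 0.175).

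**Figure D5:**
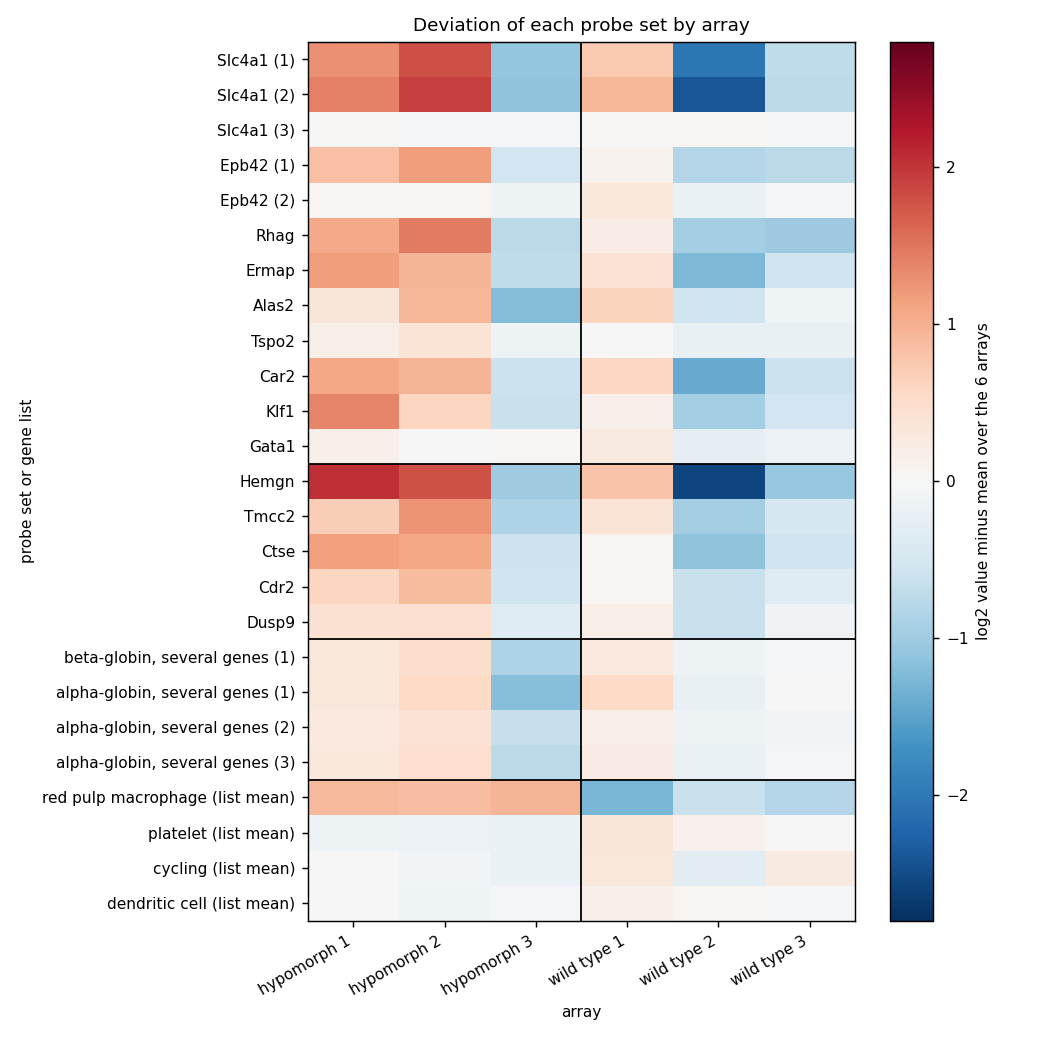
Log2 value minus the mean over the 6 arrays (colour) for the 12 erythroid probe sets, the 5 genes of most similar profile, 4 probe sets that list several globin genes and the means of 4 marker lists (rows), by array (columns). Hypomorph replicates 1 and 2 and wild-type replicate 1 are red in most erythroid rows, while the macrophage list is red on all hypomorph arrays.

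Globin was read best by probe sets that list more than 1 gene and were therefore not tested. The 3 that list 2 alpha-globin genes and the 1 that lists 4 beta-globin genes each had hypomorph replicate 3 lowest in the hypomorph and wild-type replicate 2 lowest in wild type. The beta-globin one read 13.19, 13.39 and 12.03 in the hypomorph, against 13.17, 12.76 and 12.86 in wild type, so that hypomorph replicate 3 was the lowest of all arrays. One alpha-globin probe set read 10.70, 10.95 and 9.18 in the hypomorph, against 10.93, 10.17 and 10.36 in wild type. Over the 4 the differences between the means ran from -0.21 to 0.01. The 6 globin genes with a probe set of their own had 0 risen and 1 fallen, Hbb-b2, at 5.85, 5.67 and 5.82 in the hypomorph against 6.62, 6.17 and 6.66 in wild type (adjusted p = 0.0175). The globin copies are near-identical and RNA of one may hybridize to probes for another, so this value is uncertain. Hba-a1, Hbb-y, Hbb-bh1, Hba-x and Hba-a2 had means over all arrays of only 3.08 to 4.03. Background is unknown at that level, so their lack of a call says little.

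Hypomorph replicate 3 and wild-type replicate 2 were the lowest of their genotype for 0 of 13 macrophage, 0 of 9 platelet, 0 of 11 dendritic cell and 1 of 11 eosinophil, mast cell and basophil genes. The share over all genes was 10.6%, and in lists this small such counts lie near it. Of the 15 cycling genes described below, 12 had the pattern. All 13 genes of the red pulp macrophage list rose, with a median log2 change of 1.89, and their mean level was 11.13 to 11.22 in the hypomorph and 8.995 to 9.65 in wild type. The iron exporter gene Slc40a1 rose 3.06-fold, Adgre1, which encodes F4/80, 4.32-fold and the complement gene C1qc 3.89-fold. Within the hypomorph the macrophage mean differed by 0.10 between arrays and was highest on replicate 3, whereas the mean of the 9 erythroid members differed by 1.55 and was lowest there. Within wild type the macrophage mean differed by 0.65, lowest at 8.995 on replicate 1 and highest at 9.65 on replicate 2, where the members had their highest mean (5.86, replicate 1) and their lowest (4.59, replicate 2). The arrays thus ran in opposite order for macrophage genes and members at these extremes, and the part of this in the erythroid values was not tested. Platelet genes had 0 of 9 risen and 2 fallen, the chemokine genes Ppbp (1.98-fold lower) and Pf4 (1.62-fold lower), with a mean level of 5.34 to 5.38 in the hypomorph and 5.53 to 5.87 in wild type.

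Of 11 eosinophil, mast cell and basophil genes 1 rose, the eotaxin receptor gene Ccr3 (6.09-fold), and 2 fell, the eosinophil granule gene Prg2 (1.80-fold lower, adjusted p = 0.0211) and, named after its values were seen, the IgE receptor gene Ms4a2 (log2 change -0.34). The brightest, the histamine-forming enzyme gene Hdc, did not pass (log2 change -0.07, adjusted p = 0.918). The list had a mean level of 4.24 to 4.32 in the hypomorph and 4.24 to 4.35 in wild type. Of 59 genes in the 5 lists for other cells and for cycling, 0 had a range above 1 within the hypomorph. The 15 cycling genes, which dividing erythroblasts share with other dividing cells, had 0 risen and 0 fallen by limma, and 2 of 15 had an unadjusted p under 0.05. For 12 of the 15, hypomorph replicate 3 and wild-type replicate 2 were the lowest arrays of their genotype (10.6% of all genes), with a mean level of 7.64 to 7.81 in the hypomorph and 7.52 to 8.15 in wild type. The proliferation marker gene Mki67 read 9.93, 9.90 and 9.64 in the hypomorph against 10.47, 9.57 and 10.22 in wild type. The part of these cells in the erythroid values was not tested.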

How the data were processed

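Arrays of CD11c+ spleen cells were compared, 3 from Atg16L1 hypomorph and 3 from wild-type mice. Per the submitters' processing notes the authors used Affymetrix Power Tools, of a version not given in the sources used here (nor are the background correction and the summarization). The deposited values were taken as log2 expression from their range, 1.96 to 14.3, and as normalized between arrays from their medians, 5.66 to 5.72. Precision is limited by the number of arrays, which have no depth.

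Gene names came from GEO's platform annotation. Of 22625 probe sets with values that were not controls, 20379 named 1 gene and were tested, 691 named several and 1555 had none listed. Hypomorph and wild type were tested against each other in R 4.3.3 by limma 3.58.1 (eBayes after lmFit, two-sided, no covariate, no filter), with Benjamini-Hochberg adjustment over all 20379, and the script was tested on simulated data. Gene lists used the probe set of highest mean per gene. Named genes were the members, Atg16l1, the 2 of smallest p past the threshold and the brightest of each list, and the 5 of most similar profile, and Cpa1 and the other genes so marked were named after their values were seen. The members and lists were chosen with earlier results of these data known. The 14 alternatives changed the unit tested, filter, normalization, moderation, weights, covariate or block, or left out 1 array. Tables and plots were made in Python 3.11.15 with pandas 2.3.3 and matplotlib 3.10.9.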

Additional observations from a re-analysis of the deposited data

How the results depend on the processing

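The count of 0 erythroid probe sets called held under all alternatives but 1, the fit without hypomorph replicate 3. As single arrays were left out, the risen count ran from 0 to 2 for the 12 erythroid probe sets. For the 77 other erythroid genes it ran from 3 to 7, with 3 to 8 fallen, and for all probe sets from 932 to 1967, with 347 to 1577 fallen. The lowest counts of other erythroid genes, 3 risen and 3 fallen, came without hypomorph replicate 2, and 3 risen and 4 fallen without hypomorph replicate 1. With the spike-in covariate 0 rose and 0 fell among the other erythroid genes, the macrophage genes and all probe sets (1932 of all at an unadjusted p under 0.05, limma). The covariate nearly follows genotype, so this fit cannot tell the 2 apart. With 1 probe set per gene 1210 rose and 1050 fell, fewer being tested. Trend and robust fitting gave 11 fallen other erythroid genes. The replicate number as a block gave 861 fallen over all probe sets and 0 erythroid probe sets called. At an unadjusted p under 0.05 in that limma fit were 3 of the 12 and 6103 of all 20379. Deviations of same-numbered arrays correlated at 0.159, 0.0188 and 0.0997. The value for replicate 1 was the highest of any pair, while hypomorph replicates 2 and 3 both correlated best with wild-type replicate 3. The labels give only a number, and these values cannot decide whether same-numbered arrays were handled together.

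Signs turned for 3 probe sets that did not pass. The third Slc4a1 probe set changed by 0.052 after quantile normalization and 0.13 with the spike-in covariate. The second Epb42 probe set changed by 0.035 after quantile normalization, 0.0068 with array weights and 0.53 with the covariate, and from -0.13 to 0.10 as single arrays were left out. Alas2 ran from -0.41 to 0.65 as single arrays were left out. The causes were not tested. Of 158 refitted differences, 145 kept their sign and stayed on the same side of the threshold, 11 turned and 2 passed it. With 3 arrays per group, the 95% intervals of the varying probe sets reached 1.07 to 2.36 either side on the log2 scale. A difference smaller than the reach of its own interval could not be told from 0, and the adjusted threshold is stricter. Differences of 1.17 for Rhag and 1.47 for the second Slc4a1 probe set did not pass with all arrays.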

Other observations

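Probe sets with a wide range within the hypomorph were not all ordered like the erythroid ones. The gene for the pancreatic enzyme carboxypeptidase A1, Cpa1, chosen after its values were seen, read 5.13, 10.00 and 10.09 on hypomorph replicates 1, 2 and 3, against 6.86, 10.38 and 9.43 on wild-type replicates 1, 2 and 3. It was low on hypomorph replicate 1 and wild-type replicate 1, arrays on which most of the erythroid genes were high, and its difference between genotypes did not pass (log2 change -0.48, adjusted p = 0.85). The part of pancreatic RNA in the erythroid values was not tested.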
